A study of Mus musculus with 8 samples.

Results

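Matrix metalloproteinases (MMPs) and their tissue inhibitors (TIMPs) were followed as 10 named genes in bone marrow-derived macrophages (BMDM): *Mmp2*, *Mmp8*, *Mmp9*, *Mmp12*, *Mmp13*, *Mmp14*, *Mmp19*, *Timp1*, *Timp2* and *Timp3*. They were found by symbol among the 53819 gene rows of the count table, and all 10 were present, 7 MMPs and 3 TIMPs. The 10 genes were selected on the measured difference between bilirubin and vehicle in these same libraries, so their own differences between those groups are given as a description, with no test. Marrow came from the hind legs of 4 female Balb/CJ mice aged 8 weeks, and was differentiated over 5 days by the growth factor M-CSF at 25 ng/mL. From each mouse, 1 culture then received 2.5 µM bilirubin, a product of heme breakdown, and 1 received DMSO as vehicle, and RNA was taken after 48 h, which gave 4 vehicle and 4 bilirubin libraries of poly-A RNA. Both groups shared strain, sex, age and growth factor. Cultures of a mouse carry the same number, 1 to 4.

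MMPs are zinc-dependent proteases that cut extracellular matrix and also cytokines, receptors and other proteases. They are made as inactive zymogens whose propeptide blocks the active site until it is cut away, and TIMPs then bind the active enzyme and stop it. MMP14 is anchored in the cell membrane and activates pro-MMP2 in a complex bridged by TIMP2. By contrast, MMP9 is secreted, partly bound to TIMP1 or, in humans, to lipocalin-2. MMP12, or macrophage metalloelastase, is a characteristic product of tissue macrophages. Because transcripts were measured here, the values say nothing of zymogen activation or of protease activity.

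Libraries held 34142781 to 47071714 counts on genes. Levels within a gene are given as CPM (the share of a library's counts, scaled up to a common total by edgeR's TMM method), and levels between genes as TPM (the same kind of share corrected for transcript length). Markers matched the labelled cell type: all 10 macrophage markers were detected, with a summed level of 24259 to 24545 CPM in vehicle and 28589 to 30590 CPM in bilirubin cultures, most of it *Lyz2*, and 3 of them rose and 1 fell. Of the 13722 genes with enough counts, 1033 passed an adjusted p of 0.05 between bilirubin and vehicle (7.53%), 616 of them higher (4.49%) and 417 lower (3.04%), in edgeR's quasi-likelihood fit, which held a term for the mouse beside that for treatment. Without the mouse in the model 686 passed, and scaled by library size alone 1083 passed, 527 higher and 556 lower. The vehicle and bilirubin values did not overlap for 10.6% of tested genes. Of the 10 MMP and TIMP genes, 8 were tested, while *Mmp2* and *Timp3* fell under the filter on low counts. *Mmp9* passed that filter only through its bilirubin libraries.

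In vehicle cultures the MMP transcripts were dominated by *Mmp12*. Its level was 2029 ± 362 TPM (SD, n = 4, as for all means below), and it made up 91.9% ± 1.07 of the summed TPM of the 7 MMPs. *Mmp8*, a neutrophil-type collagenase, came next at 98.5 ± 8.41 TPM. Neither range reached that of its neighbour in the order. *Mmp13*, the main interstitial collagenase of rodents, *Timp2* and *Mmp19* followed at 35.8 ± 6.85, 35.1 ± 3.63 and 28.2 ± 2.47 TPM, and the ranges of *Mmp13* and *Timp2* overlapped, as did those of *Timp2* and *Mmp19*. *Mmp14* stood apart below them at 13 ± 0.886 TPM, and *Timp1* below that at 2.48 ± 0.667 TPM. At the bottom were *Mmp9* at 0.136 ± 0.0740 TPM, *Mmp2* at 0.0557 ± 0.0631 TPM and *Timp3* at 0.0406 ± 0.0323 TPM, whose ranges overlapped from each gene to the next. *Timp2* held 93.3% ± 1.65 of the summed TPM of the 3 TIMPs.

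With bilirubin, *Mmp12* and *Mmp8* kept the first and second places at 2549 ± 799 and 109 ± 9.88 TPM. *Mmp14* moved from place 6 to place 3 at 73.5 ± 24.4 TPM, with a range that overlapped both *Mmp8* above and *Timp2* below it. *Mmp9* moved from place 8 to place 7, at 7.31 ± 3.67 TPM, above *Timp1* at 1.90 ± 0.378 TPM with no overlap. *Mmp12* still made up 90.5% ± 2.83 of the summed MMP transcripts. Leaving *Mmp12* out, the other 6 MMPs summed to 175.7 ± 14.3 TPM in vehicle and 249.7 ± 22.2 TPM in bilirubin cultures. Within that sum, the share of *Mmp14* was 7.44% ± 0.956 in vehicle and 29.1% ± 7.87 in bilirubin cultures, and that of *Mmp9* was 0.0770% ± 0.0404 and 2.86% ± 1.24. The share of *Mmp8*, the largest of the 6 in both groups, was 56.1% ± 2.51 and 43.8% ± 4.67.

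**Figure D1:**
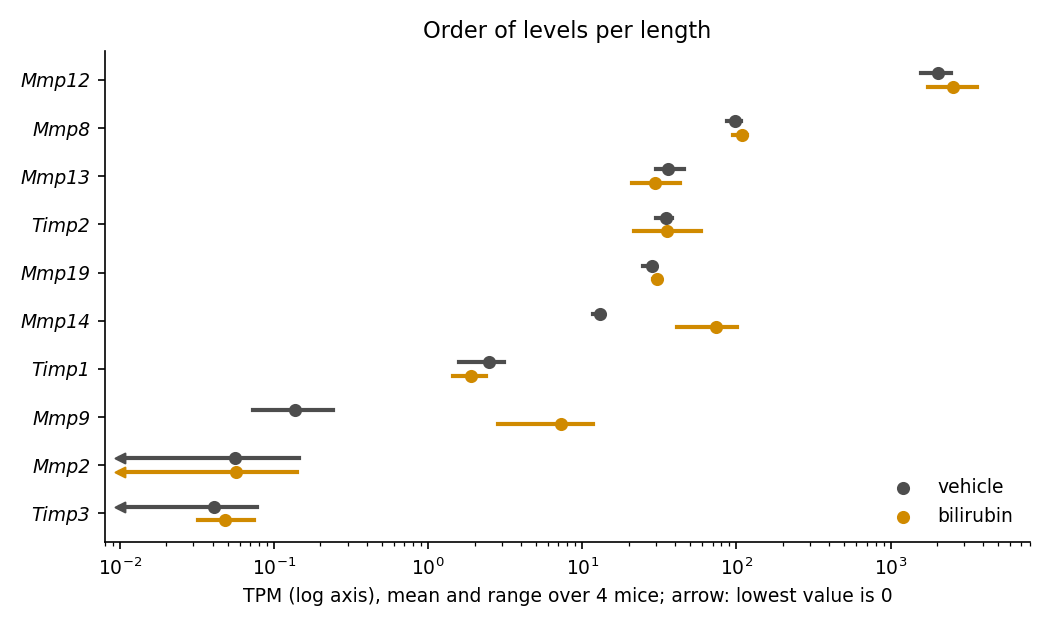
Level of the 10 MMP and TIMP genes in TPM on a log axis, ordered by the vehicle mean, with points for the mean and bars for the range over 4 mice in vehicle (grey) and bilirubin (orange) cultures. *Mmp12* lies far above the rest in both groups, and *Mmp14* and *Mmp9* are the genes whose bars for the 2 groups lie apart.

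*Mmp12*, *Mmp13* and *Mmp8* belong to a cluster of 10 MMP genes on mouse chromosome 9, which spans chr9:7272514-7699587 in GRCm39, the build of the deposited files. *Mmp13* lies at chr9:7272514-7283331, *Mmp12* at chr9:7344381-7369499 and *Mmp8* at chr9:7558457-7568487, all on the plus strand. The other genes of the cluster were far lower or silent in these macrophages. *Mmp27*, directly downstream of *Mmp8*, was at 11.5 TPM in vehicle and 11.5 TPM in bilirubin cultures, and *Mmp10*, a stromelysin, at 1.84 and 2.45 TPM. *Mmp1b* and *Mmp20*, the enamel protease, had 0 counts in every library, while *Mmp3*, *Mmp1a* and *Mmp7* reached at most 4, 5 and 2 counts. Elsewhere in the genome, *Mmp9* is at chr2:164780439-164797771, *Mmp14* at chr14:54668878-54682821, *Mmp19* at chr10:128626773-128636695 and *Mmp2* at chr8:93553902-93580049, all on the plus strand. Of the inhibitors, *Timp1* is at chrX:20736316-20740976 (plus strand, inside *Syn1*), *Timp2* at chr11:118191887-118246566 (minus strand) and *Timp3* at chr10:86136236-86185371 (plus strand, inside *Syn3*).

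Whether the library kept strand is not given in the sources used here, so genes that overlap in exons could share reads. Exons of *Mmp12* overlap *Mmp1b*, which had 0 counts. For *Mmp19*, with 17543 counts over the 8 libraries, the overlapping *Tmem198b* on the other strand had 2815. *Gm45472*, opposite *Mmp2*, had 99 counts against 35 for *Mmp2* itself, so the traces of *Mmp2* are uncertain.

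Reads of *Mmp12* were assigned by Salmon, the quantification tool, to annotated transcripts that begin at 2 places. The starts themselves were not measured. *Mmp12-203*, which starts at position 7344397 of chromosome 9, gave nearly all of the transcripts from the upstream place, and those from the downstream place, such as *Mmp12-202*, start at position 7347374 or close after it. Transcripts of the upstream start were assigned 61.6, 61.5, 62 and 61.1% of *Mmp12* TPM in vehicle cultures (mice 1 to 4 in order) and 62.1, 61.1, 60.6 and 61.6% in bilirubin cultures. These shares overlapped between the groups and spanned 60.6 to 62.1%, although the total for *Mmp12* ranged from 1566 to 3651 TPM. By contrast *Mmp9*, *Mmp8* and *Mmp13* were each assigned to 1 transcript, and *Mmp14-201* took 97.6% of *Mmp14* in vehicle and 96.0% in bilirubin cultures.

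Promoter windows from RefSeq (build GRCm38.p6) were matched by symbol for 7 of the 10 genes, in 8 windows. The genes without one were *Mmp9*, *Mmp19* and *Mmp2*. The 250 bases before the RefSeq start, written 5′ to 3′ in the direction of transcription, are shown for *Mmp14*, the gene among these whose vehicle and bilirubin levels lay apart, for both starts of *Mmp12* and for *Mmp13*, its cluster neighbour, and for the inhibitor *Timp2*. The reference is another mouse strain than Balb/CJ. Capitals mark matches on either strand to an AP-1 element (TGANTCA), a GC box (GGGCGG) or a TATA box (TATAAA), and no match to one motif overlapped a match to another.
*Mmp14*, chr14:54431348-54431597, plus strand: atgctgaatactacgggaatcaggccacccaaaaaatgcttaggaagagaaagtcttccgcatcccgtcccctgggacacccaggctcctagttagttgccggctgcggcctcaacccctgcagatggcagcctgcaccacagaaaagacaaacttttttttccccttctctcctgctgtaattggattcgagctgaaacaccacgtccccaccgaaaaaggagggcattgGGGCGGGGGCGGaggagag
*Mmp12*, upstream start, chr9:7344147-7344396, plus strand: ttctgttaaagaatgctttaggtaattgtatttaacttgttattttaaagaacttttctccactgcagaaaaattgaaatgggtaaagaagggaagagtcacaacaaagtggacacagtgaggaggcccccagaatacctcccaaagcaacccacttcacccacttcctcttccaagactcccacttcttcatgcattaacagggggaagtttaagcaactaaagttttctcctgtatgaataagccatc
*Mmp12*, downstream start, chr9:7347124-7347373, plus strand: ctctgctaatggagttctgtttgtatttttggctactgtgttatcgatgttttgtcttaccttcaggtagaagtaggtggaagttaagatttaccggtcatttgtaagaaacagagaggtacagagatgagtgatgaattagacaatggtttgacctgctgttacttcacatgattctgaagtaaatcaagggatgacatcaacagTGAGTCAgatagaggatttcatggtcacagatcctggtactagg
*Mmp13*, chr9:7272264-7272513, plus strand: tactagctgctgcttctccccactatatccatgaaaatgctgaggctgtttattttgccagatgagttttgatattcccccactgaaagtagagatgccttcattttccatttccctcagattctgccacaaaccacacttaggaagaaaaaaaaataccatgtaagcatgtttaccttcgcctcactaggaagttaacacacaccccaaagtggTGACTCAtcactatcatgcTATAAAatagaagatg
*Timp2*, chr11:118355412-118355661, minus strand: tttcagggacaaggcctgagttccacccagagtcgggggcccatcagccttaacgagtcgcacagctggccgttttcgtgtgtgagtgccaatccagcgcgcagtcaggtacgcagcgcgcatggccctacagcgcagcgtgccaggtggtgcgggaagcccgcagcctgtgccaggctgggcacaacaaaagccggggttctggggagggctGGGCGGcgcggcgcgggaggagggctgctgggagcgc

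The AP-1 letters, the element recognised by the Fos and Jun factors, were in 2 of the 8 windows, that of *Mmp13* with the first base 35 bases before the start and that of the downstream *Mmp12* start 44 bases before it. Among all 32851 windows of this length in the table, 6.75% held them. *Mmp13* was the window of the 8 with TATAAA, at 16 bases before the start, against 12.4% of all windows. GC boxes, the letters bound by Sp1, stood in 4 of the 8 windows against 32.7% of all windows. They were a pair at 19 and 13 bases before the start in *Mmp14*, and 1 each in *Timp1*, *Timp2* and *Timp3*. The consensus κB element was in 0 of the 8 windows and in 3.90% of all. These windows are short, and some annotated starts in GRCm39 lie inside them, upstream of the RefSeq start, by 177 bases for *Mmp14-201*, 126 for *Timp2-201*, 54 for *Timp1-202* and 40 for *Timp3-201*. Positions of matches in these windows therefore depend on which start is taken. Base composition separated the windows in the same way as the motifs, with 55.2, 54.4, 68.0 and 65.6% G or C in *Mmp14*, *Timp1*, *Timp2* and *Timp3* and 39.6 to 44.8% in those of the chromosome 9 genes.

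*Mmp9*, or gelatinase B, cleaves denatured collagen and type IV collagen of basement membranes. In the vehicle cultures of mice 1 to 4 it had 22, 9, 9 and 6 counts, or 0.463, 0.238, 0.206 and 0.141 CPM. In the bilirubin cultures it had 468, 207, 942 and 621 counts, or 13.5, 5.73, 23.5 and 15.5 CPM. Every bilirubin culture was above every vehicle culture, and the smallest bilirubin value came from mouse 2 and the largest from mouse 3. Within mice 1 to 4 the differences in log2 CPM were 4.72, 4.33, 6.52 and 6.35, and the fitted log2 fold change was 5.72 ± 0.30 (SE), a 52.9-fold difference and the highest of the 13722 tested genes. Since the vehicle level rests on so few counts, the size of this fold is less certain than its direction, and without 1 mouse at a time it ran from 5.32 to 6.24 on the log2 scale. The SE here and below comes from the fit, which borrows variation from other genes, and does not measure the spread of the 4 within-mouse differences.

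*Mmp14*, the membrane-type MMP that cuts fibrillar collagen at the cell surface, was already present in vehicle cultures. Its level there was 21.3, 17.8, 20.4 and 20.4 CPM in mice 1 to 4. With bilirubin it was 116, 64.3, 158 and 123 CPM. The groups did not overlap, the vehicle values were close to each other, and the order of the mice with bilirubin was the same as for *Mmp9*, with mouse 2 lowest and then mice 1, 4 and 3. Within-mouse differences in log2 CPM were 2.45, 1.85, 2.95 and 2.58, and the fitted log2 fold change was 2.48 ± 0.15 (SE), a 5.56-fold difference that held place 28 among the 13722 tested genes. *Mmp2*, the gelatinase that MMP14 activates, had 3, 3, 12 and 0 counts in vehicle and 0, 6, 11 and 0 counts in bilirubin cultures. Its highest level was 0.275 CPM, in a vehicle culture, and mouse 3 had the most counts in both groups. At these counts no difference in *Mmp2* was detectable.

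*Mmp12*, the most abundant of the 10 genes, varied between mice in both groups. Vehicle cultures of mice 1 to 4 had 1662, 2061, 1723 and 1306 CPM, and bilirubin cultures 1420, 3201, 2032 and 2169 CPM. The groups overlapped, and *Mmp12* was higher with bilirubin in mice 2, 3 and 4 and lower in mouse 1. The fitted log2 fold change was 0.35 ± 0.14 (SE), with within-mouse differences from -0.23 to 0.73, and without mouse 1 it was 0.53.

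*Mmp8* was at 127 to 155 CPM in vehicle and 146 to 174 CPM in bilirubin cultures. The ranges overlapped, and although the bilirubin culture was higher in 4 of 4 mice on the CPM scale, mouse 4 differed by only 0.03 in log2 CPM and was lower on the TPM scale. The fitted log2 fold change was 0.19 ± 0.05 (SE). *Mmp13* was at 53.8, 74.0, 53.8 and 48.7 CPM in vehicle and 33.1, 73.0, 43.1 and 49.1 CPM in bilirubin cultures of mice 1 to 4. It was highest in mouse 2 in both groups and differed by -0.25 ± 0.11 (SE) on the log2 scale, with mouse 1 contributing the largest drop, -0.70, and mouse 4 a value of 0.01. Without mouse 1 the fitted value was -0.11. *Mmp19*, a broadly expressed MMP that cuts basement membrane proteins, was at 45.8 to 54.1 CPM in vehicle and 51.7 to 61.0 CPM in bilirubin cultures. It had a fitted log2 fold change of 0.16 ± 0.06 (SE), and on the CPM scale mice 2, 3 and 4 were higher with bilirubin and mouse 1 lower, whereas on the TPM scale mouse 1 was higher too (29.0 and 29.5 TPM).

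**Figure D2:**
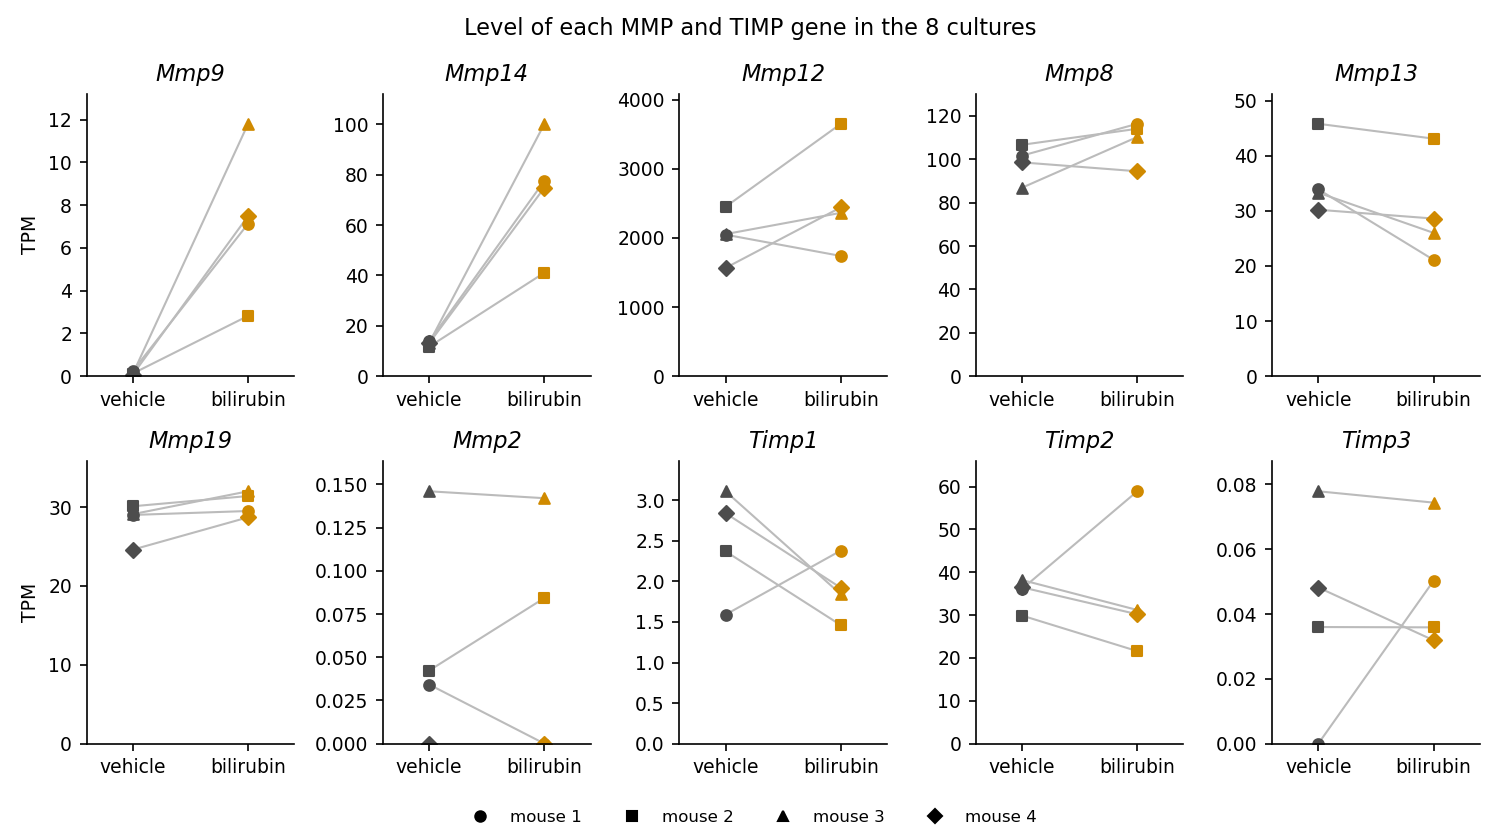
TPM of each of the 10 genes in the 8 cultures, on a linear axis from 0 that differs between panels, with vehicle in grey, bilirubin in orange, a symbol for each mouse and a line joining the cultures of a mouse. The groups lie apart in the *Mmp9* and *Mmp14* panels and overlap in the others. On this scale all lines also climb for *Mmp19* and fall for *Mmp13*, and mouse 1 runs against the others for *Mmp12*, *Timp1* and *Timp2*.

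The inhibitors did not show the pattern of *Mmp9* and *Mmp14*. *Timp2*, the most abundant TIMP here, was at 54.7, 37.8, 51.1 and 54.0 CPM in vehicle and 80.5, 27.1, 47.5 and 46.7 CPM in bilirubin cultures of mice 1 to 4. It was lowest in mouse 2 in both groups, and bilirubin values spread on both sides of the vehicle values. The fitted log2 fold change was -0.05 ± 0.14 (SE), with 0.56 in mouse 1 and -0.10 to -0.48 in the others. Its sign depended on the mice and the model: it was -0.26 without mouse 1, 0.08 without mouse 2 and 0.03 with treatment alone in the model.

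*Timp1*, a secreted inhibitor that binds MMP9 and its zymogen, had 34, 40, 60 and 54 counts in vehicle and 37, 25, 34 and 37 counts in bilirubin cultures, or 0.715 to 1.38 and 0.692 to 1.06 CPM. The groups overlapped, with mice 2, 3 and 4 lower and mouse 1 higher with bilirubin. The fitted log2 fold change was -0.31 ± 0.29 (SE), and without mouse 1 it was -0.59. *Timp3*, the matrix-bound inhibitor that also acts on ADAM17, had 0, 4, 10 and 6 counts in vehicle and 5, 4, 9 and 4 counts in bilirubin cultures. Its counts were too few to show a difference.

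Set against each other within a culture on the TPM scale, *Mmp9* and *Timp1*, and likewise *Mmp14* and *Timp2*, changed order. Summed levels did not: the MMPs were at 2205 ± 373 TPM in vehicle and 2799 ± 789 TPM in bilirubin cultures. The TIMPs summed to 37.7 ± 3.89 and 37.4 ± 16.6 TPM. As *Mmp9* and *Mmp14* were selected on this contrast, the ratios are a description. The ratio of *Mmp9* to *Timp1* was 0.153, 0.0517, 0.0342 and 0.0257 in vehicle cultures (mice 1 to 4 in order) and 3.0, 1.93, 6.39 and 3.9 in bilirubin cultures. Its vehicle values rest on 6 to 22 counts of *Mmp9* and 34 to 60 counts of *Timp1*. The ratio of *Mmp14* to *Timp2* was 0.383, 0.392, 0.347 and 0.36 in vehicle and 1.32, 1.9, 3.21 and 2.48 in bilirubin cultures. Both ratios were below 1 in every vehicle culture and above 1 in every bilirubin culture, and mouse 3 had the highest of both with bilirubin. The ratio of *Mmp2* to *Timp2* was at most 0.00456 in any culture.

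**Figure D3:**
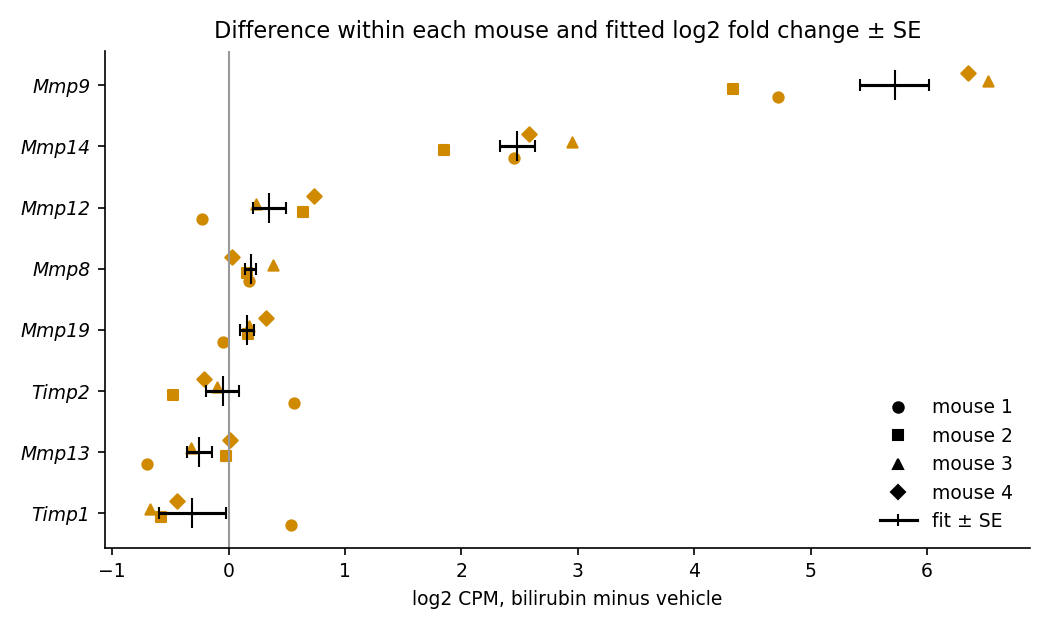
Difference in log2 CPM between the bilirubin and the vehicle culture of each mouse (symbols) and the fitted log2 fold change with its SE (black bar) for the 8 tested MMP and TIMP genes. The SE comes from the fit and does not measure the spread of the symbols. *Mmp9* and *Mmp14* lie far to the right of 0 in all 4 mice, and the fitted values of the other 6 genes lie between -0.31 and 0.35.

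Counted against the whole table, 2 of the 8 tested genes, *Mmp9* and *Mmp14*, passed the threshold that 7.53% of all tested genes passed, both of them higher with bilirubin and with groups that did not overlap. As the genes were selected on this contrast, and *Mmp9* entered the fit only through its bilirubin libraries, the count is a description and nothing is read from it. It also depended on the setting: of 12 alternatives, *Mmp8* passed in 3, *Mmp12* in 2, and *Mmp13*, *Mmp19* and *Timp2* in 1 each. The median log2 fold change over the 8 genes was 0.17, against -0.002 over all tested genes.

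Transcripts of other cell types were looked for because several of these genes are also made by neutrophils, osteoclasts and fibroblasts, and in bulk RNA more cells of a type and more RNA per cell cannot be told apart. Of 13 neutrophil markers, *Ly6g*, *Camp* and *Retnlg* had 3 counts or fewer in every library and *Elane* at most 7. *Ctsg*, *Mpo*, *Prtn3*, *S100a9*, *Cxcr2*, *Ngp* and *Ltf* reached at most 8, 18, 19, 20, 27, 28 and 30 counts. The summed neutrophil level was 33.9 to 40.5 CPM in vehicle and 45.4 to 54.9 CPM in bilirubin cultures, most of it *Csf3r* and *S100a8*. *S100a8* was the marker of that list that rose (log2 fold change 1.07, edgeR adjusted p = 0.000334). Of 9 osteoclast markers, *Calcr* and *Oscar* had 0 counts in every library, while *Acp5* and *Ctsk* rose by 1.29 and 1.41 on the log2 scale (edgeR adjusted p = 0.000165 and 5.51e-05). *Dcstamp* was higher with bilirubin by 1.83, at 0.126 to 0.682 CPM in vehicle and 1.06 to 2.17 CPM in bilirubin cultures. It passed the filter on low counts through its bilirubin libraries, so its difference is given as a description. The other tested markers of that list, *Tnfrsf11a*, *Nfatc1*, *Atp6v0d2* and *Ocstamp*, did not pass. Their log2 fold changes were -0.01, 0.05, -0.11 and -0.27 (edgeR adjusted p = 0.945, 0.465, 0.605 and 0.811). The summed osteoclast level was 320.3 to 335.5 CPM in vehicle and 354 to 401 CPM in bilirubin cultures, and its part in the *Mmp9* and *Mmp14* values was not tested. Fibroblast markers summed to 3.03 to 9.58 CPM in vehicle and 2.74 to 8.77 CPM in bilirubin cultures, with *Col3a1*, *Dcn* and *Lum* at 3 counts or fewer. Of the 9 markers 4 had enough counts to be tested, and 0 of these passed by edgeR, DESeq2 or limma voom, with 2, 2 and 1 at an unadjusted p under 0.05. Markers of mast, T, B and erythroid cells summed to at most 1.24 CPM per list in any culture. Immature monocyte markers were at 7.74 to 14.8 CPM, with *Cd34* falling by 0.70 on the log2 scale (edgeR adjusted p = 0.0195), endothelial markers at 9.88 to 18.5 CPM, and dendritic cell markers at 69.5 to 122 CPM, nearly all of it *Itgax*, which macrophages also express.

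The remaining genes of this system were read from lists of other MMPs and inhibitors, ADAM and ADAMTS proteases, activators of zymogens, docking and clearance receptors, cathepsins and matrix substrates. Of 108 such genes, 58 were tested and 23 passed, 9 higher and 14 lower with bilirubin, with a median log2 fold change of -0.12 over the 58. Over all tested genes, 7.53% passed, 4.49% higher and 3.04% lower, with a median of -0.002. As these lists were chosen with earlier results of these data known, their counts are a description and nothing is read from them. Without the mouse in the model 15 passed, and without mouse 3 or mouse 4 the number was 14 or 15, while without mouse 1 it was 29. Fold changes of the 23 genes kept their sign under each alternative, and 13 of the 23 passed under each. *Lrp1* failed with an offset for transcript length alone. Of the 9 that did not pass without some mouse, *Adam8*, *Adam15*, *Adamts10*, *Furin*, *Hpn* and *Itgb1* failed without mouse 2, without mouse 3 and without mouse 4. *Itgb3* failed without mouse 2 or 3, and *Ctsh* and *Col4a2* without mouse 3 or 4.

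**Figure D4:**
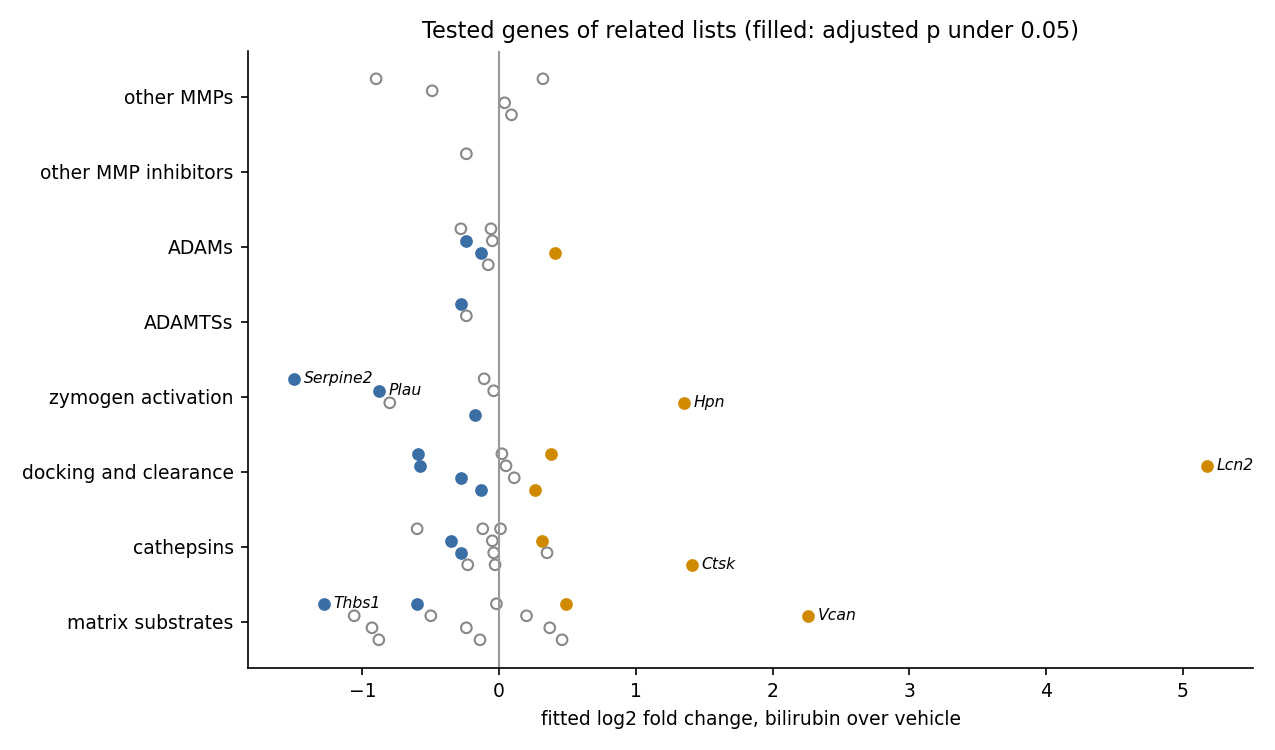
Fitted log2 fold change (bilirubin over vehicle) of the 58 tested genes in 8 related lists, 1 row per list, with filled points for genes past an adjusted p of 0.05 (orange higher, blue lower) and open points for the rest. No other MMP and no other inhibitor is filled, and *Lcn2*, *Vcan*, *Ctsk* and *Hpn* lie farthest to the right.

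Of the other 16 MMPs, 5 were tested, and 11 had too few counts. None of the 5 passed: edgeR, DESeq2 and limma voom each called 0, and 1, 1 and 2 of them had an unadjusted p under 0.05. *Mmp27* and *Mmp10* of the chromosome 9 cluster had log2 fold changes of 0.04 ± 0.07 and 0.32 ± 0.32 (SE, edgeR adjusted p = 0.803 and 0.65). *Mmp10* differed by -1.06 to 1.05 within the mice, and its adjusted p ran from 0.0377 (without mouse 1, the one alternative it passed) to 0.976. *Mmp11*, or stromelysin-3, was at 1.96 ± 0.299 CPM in vehicle with a log2 fold change of -0.49 ± 0.21 (SE, adjusted p = 0.241). *Mmp28*, or epilysin, was at 1.23 ± 0.19 CPM in vehicle, and its log2 fold change was -0.90 ± 0.24 (SE, adjusted p = 0.066), lower in 4 of 4 mice. That adjusted p ran from 0.029, with no filter, to 0.265 over the alternatives. The GPI-anchored inhibitor *Reck* was the one other inhibitor tested and did not pass with any of the 3 tools (log2 fold change -0.24 ± 0.22 SE, edgeR adjusted p = 0.628, and 0 with an unadjusted p under 0.05), and *Timp4* reached at most 3 counts.

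Among the ADAMs, membrane proteases that shed cell-surface proteins, 7 of 12 were tested, 1 rose and 2 fell. *Adam17*, the sheddase of TNF and a target of TIMP3, rose by 0.41 ± 0.04 on the log2 scale (SE, edgeR adjusted p = 0.000604), in 4 of 4 mice, from 280 ± 10.8 CPM in vehicle. *Adam8* fell by 0.24 and *Adam15* by 0.13 (adjusted p = 0.0352 for both), and without mouse 3 their adjusted p was 0.168 and 0.189. Of 19 ADAMTSs, secreted proteases of proteoglycans and procollagens, 2 were tested, and *Adamts10* fell by 0.28 (adjusted p = 0.0495, and 0.259 without mouse 3).

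Of 7 tested genes of zymogen activation, 1 rose and 3 fell. *Plau*, or urokinase, which makes plasmin and through it can activate pro-MMPs, fell from 1392 ± 109 CPM to between 505 and 995 CPM, by 0.88 ± 0.12 on the log2 scale (SE, edgeR adjusted p = 0.00308), in 4 of 4 mice. *Serpine2*, a serpin that inhibits urokinase, plasmin and thrombin, fell by 1.5 ± 0.15 (adjusted p = 0.000715), with vehicle and bilirubin cultures at 5.70 to 7.99 and 1.99 to 3.32 CPM. *Furin*, the convertase that removes the propeptide of MMP14, fell by 0.18 ± 0.03 (adjusted p = 0.0154, and 0.125 without mouse 3). *Hpn*, or hepsin, a membrane serine protease, rose by 1.35 ± 0.28 (adjusted p = 0.0225, and 0.107 without mouse 4) at 13 to 32 counts in vehicle. The 3 genes that fell were thus 2 activating proteases and 1 protease inhibitor.

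All 10 docking and clearance genes were tested, and 3 rose and 4 fell. *Lcn2*, or lipocalin-2, whose human protein forms a complex with MMP9, had 1 to 6 counts in vehicle and 66 to 178 counts in bilirubin cultures. It was higher with bilirubin in 4 of 4 mice (log2 fold change 5.18 ± 0.32 SE), a size that depends on the few vehicle counts. Like *Mmp9*, *Lcn2* passed the filter on low counts only through its bilirubin libraries, so its difference is given as a description. *Itgav*, the αv integrin chain, fell by 0.59 ± 0.05 (adjusted p = 0.000294) from 427 ± 13.6 CPM. *Itgb2*, the leukocyte β2 integrin chain, rose by 0.38 ± 0.05 (adjusted p = 0.00194) from 844 ± 41.1 CPM. *Lrp1*, the endocytic receptor that clears MMP and TIMP complexes, fell by 0.28 ± 0.04 (adjusted p = 0.00305, and 0.088 with an offset for transcript length) from 4034 ± 112 CPM. These integrin chains therefore moved in both directions.

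Of 12 tested cathepsins, lysosomal proteases, 2 rose and 2 fell. *Ctsk*, the collagen-cutting cathepsin of osteoclasts, rose by 1.41 ± 0.08 (SE, edgeR adjusted p = 5.51e-05), with vehicle cultures at 22.3 to 30.1 CPM and bilirubin cultures at 56.2 to 87.4 CPM. *Ctsz* rose by 0.31 (adjusted p = 0.00336). *Ctsd*, the aspartic cathepsin, fell by 0.35 ± 0.04 (adjusted p = 0.00192) from 13858 ± 696 CPM in vehicle, and it shares exons with *Gm49369* on its strand. *Ctsh* fell by 0.28 (adjusted p = 0.0412, and 0.241 without mouse 3).

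Of 14 tested matrix substrates, 2 rose and 2 fell. *Vcan*, the proteoglycan versican, rose by 2.26 ± 0.23 (SE, edgeR adjusted p = 0.000751), with 32 to 55 counts in vehicle and 145 to 244 in bilirubin cultures. *Col4a2*, a basement membrane collagen chain that overlaps *Col4a1* on the other strand, rose by 0.49 (adjusted p = 0.029, and 0.179 without mouse 3). *Thbs1*, thrombospondin-1, fell by 1.28 ± 0.06 (adjusted p = 3.06e-05) from 41.4 ± 7.01 CPM. *Spp1*, osteopontin, a substrate of several MMPs, fell by 0.60 ± 0.07 (adjusted p = 0.00154) from 3737 ± 232 CPM.

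Across the 8 libraries, the genes whose log2 CPM ran most like that of *Mmp9* were *Slpi*, an inhibitor of serine proteases (Pearson r = 0.994), and *Snd1*, *Tnfaip2*, *Ifngr2* and *Sema4a* (r = 0.993 each), out of 10900 genes searched. Most like *Mmp14* were *Gsap* (r = 0.997), *Zmiz2* (0.996), and *Tlr2*, *Traf1* and *Nadk* (0.995 each). These are descriptions, since all values share the same 8 libraries and the step between the groups sets most of each r. With group means removed, r was 0.89 for *Slpi* and 0.96 for *Sema4a* with *Mmp9*, and 0.97 for *Gsap* and 0.93 for *Tlr2* with *Mmp14*. These genes were picked for the highest r over the same libraries, which by itself favours a high r here too. The sizes differed widely among them: *Slpi* went from 7.02 to 42.4 CPM and *Tlr2*, a receptor for bacterial lipoproteins, from 52.6 to 126 CPM, whereas *Snd1* went from 138 to 157 CPM.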

How the data were processed

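Poly-A RNA-seq of 8 BMDM libraries was analysed, a vehicle and a bilirubin culture from each of 4 mice. Per the methods and the submitters' processing notes, reads were trimmed (Trim Galore 0.6.7, cutadapt 3.4), aligned with STAR 2.7.9a to GRCm39 and quantified with Salmon 1.10.1. The authors deposited estimated counts per gene, without normalization (88.45% of them exactly whole, zeros included and with no tolerance), and for each library the estimated counts, effective length and TPM of 142434 transcripts. No column of per-sample values was left out.

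Estimated counts were rounded and fitted in R 4.3.3 with edgeR 4.0.16 (TMM scaling, filterByExpr with at least 10 counts and 15 in total, mouse and treatment in the model, quasi-likelihood test), with Benjamini-Hochberg adjustment over 13722 genes and a threshold of 0.05. TPM was summed over the transcripts of a gene. Log2 CPM used a prior count of 2. The SE of an edgeR log2 fold change was taken as its absolute value over the square root of the quasi-likelihood F. That F uses variation shared across genes, so the SE can be smaller than the within-mouse differences of a gene imply. The mouse was in the model because the study's methods used it and both cultures came from the same mouse. Across genes, the residuals of both cultures of a mouse, after subtracting group means, correlated by -0.01 to 0.13 (mean 0.086). The mean for cultures of different mice, -0.028, is tied to that value by the subtraction of group means, so it is not a separate comparison. The mice are 4 separate animals. The mouse term takes up differences in level between them, so p-values weigh the treatment difference against its variation from mouse to mouse. Noise of the cultures and libraries is part of that variation and cannot be told apart from a response that differs between mice.

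The 10 genes, the related lists and the markers were chosen with earlier results of these data known. All 10 genes are named, and from each other list those past the threshold, or the 4 with the smallest adjusted p where there were more. Of the other MMPs, those of the chromosome 9 cluster or with a mean of at least 1 CPM are also named, as are the 5 genes most alike to *Mmp9* and to *Mmp14* at a mean log2 CPM of 1 or more. Positions are from GENCODE for GRCm39, and promoter windows from RefSeq for GRCm38.p6. The alternatives tried were a model without the mouse, DESeq2 1.42.0, limma 3.58.1 (voom), other scaling, other filters, a transcript length offset, and each mouse left out. The fits were tested on simulated data.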

Additional observations from a re-analysis of the deposited data

Results flagged for a closer look

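Among 28 groups of 4 values checked, the members' log2 CPM in each treatment, their within-mouse differences and the log2 TPM ratios of *Mmp9* to *Timp1* and *Mmp14* to *Timp2*, 1 had a value far from the others by Dixon's 95% criterion. It was *Mmp19* in the vehicle culture of mouse 4, at 5.52 log2 CPM against 5.73 to 5.76 in the other vehicle cultures, with a gap over range of 0.878. Chance alone marks about 1 in 20 such groups. Mouse 4 also had the largest within-mouse difference of *Mmp19*, 0.32 in log2 CPM.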

How the results depend on the processing

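As a description of genes selected on this contrast, the log2 fold changes of *Mmp9* and *Mmp14* ran from 5.32 to 6.24 and from 2.30 to 2.66 over the 12 alternatives. *Mmp8* crossed the threshold in 3 of them, *Mmp12* in 2 and *Mmp13*, *Mmp19* and *Timp2* in 1 each, and *Mmp8*, *Mmp12*, *Mmp19* and *Timp2* did so without mouse 1. *Timp2* changed sign, to 0.03 without the replicate block (no pairing by mouse), 0.08 without mouse 2 and 0.01 without mouse 4, from a range of -0.26 to 0.08 over the mice left out. Without the block, 686 genes in all and 15 list genes passed, with 1 ADAM and 0 ADAMTSs. With a transcript length offset, 579 genes and 15 list genes passed, with 1 ADAM, 0 ADAMTSs and 4 docking genes. With no filter, 1692 of 26021 genes passed, with 1 other MMP and 7 cathepsins. DESeq2 and voom each passed 0 ADAMTSs. The causes were not tested.

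Leaving out a mouse, 377 to 1910 genes and 14 to 29 list genes passed, the fewest without mouse 3 and the most without mouse 1. The ranges per list were 0 to 1 for other MMPs, 1 to 3 for ADAMs, 0 to 1 for ADAMTSs, 2 to 5 for zymogen activation, 5 to 8 for docking, 3 to 6 for cathepsins and 3 to 5 for matrix substrates. *Mmp13* and *Timp2* exchanged places 3 and 4 in the order of vehicle levels without mouse 2, and *Mmp2* and *Timp3* places 9 and 10 without mouse 3. *Mmp2*, *Timp3*, *Mmp9* in vehicle and *Timp1* are limited by depth.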

Other observations

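Salmon's assignment to transcripts differed in how far it could be resolved. *Timp2* was split between *Timp2-201* and *Timp2-202*, with 54.6% (47.2 to 61.7%) of its TPM on the former in vehicle and 53.3% (43.5 to 58.6%) in bilirubin cultures. *Mmp19-201* held 67.2% (61.4 to 71.9%) of *Mmp19* in vehicle and 67.0% (62 to 71.0%) in bilirubin cultures. For *Timp1*, at 25 to 60 counts a library, *Timp1-202* held from 35.8 to 100% in vehicle and from 58.7 to 100% in bilirubin cultures, a range too wide to compare. *Mmp12-204*, annotated as a target of nonsense-mediated decay, held 11.8% (10.6 to 12.6%) of *Mmp12* in vehicle and 12.1% (11.9 to 12.5%) in bilirubin cultures. The ranges of the groups overlapped for each of these transcripts, and no test was run on them.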
